A study of Mus musculus with 17 samples.

Results

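Oxidative phosphorylation genes were followed across 2 RNA sequencing experiments on mice with lesions in the sphingomyelin synthase family. The members were the nuclear genes whose symbols follow the naming of respiratory chain and ATP synthase subunits (Nduf with a, b, c, s or v, Sdha to Sdhd, Uqcr, Cyc1, Cox4 to Cox8 with a letter, and Atp5), without pseudogenes, and with a count above 0 in at least 1 library. In liver 80 of 49315 listed genes met this rule, and in hepatocytes 79 of 15632, of which 79 were shared and Cox8b was counted in liver alone. All 80 are protein coding and they lie on 19 chromosomes. The pattern misses some subunit and carrier genes by its letters, Cox4i1, Cox4i2, Ndufab1, Usmg5 and Cycs among them, and it takes in 3 genes that are not subunits, namely Ndufa4l2, the supercomplex factor Cox7a2l and Atp5s.

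The liver experiment held 4 wild-type (WT) libraries and 4 labelled SMSrKO, a knockout of Samd8, which encodes sphingomyelin synthase-related protein. Both liver groups had received a high-fat diet and fructose in the drinking water for 16 weeks, so the diet is common to both. The hepatocyte experiment held 3 libraries each of WT, Sms1/Sms2-dKO (the sphingomyelin synthase genes Sgms1 and Sgms2) and Sms1/Sms2/Smsr-tKO (the same genes and Samd8), from mice of 2 months whose liver cells were released with collagenase. No diet is given for the hepatocyte mice, and the labels name neither the kind of knockout allele nor a promoter or Cre driver. RNA of the targeted genes followed the labels for 1 of the 3 genes. Samd8 stood at 42.6 ± 6.38 CPM (counts scaled to library size, SD, n = 4) in WT liver and 54.2 ± 3.67 in liver labelled SMSrKO, and Sgms1 at 49.7 ± 3.34 in WT hepatocytes and 90.5 ± 5.55 in those labelled dKO (n = 3 each). In tKO libraries Sgms1 was at 58.7 ± 3.31 CPM and Samd8 at 101 ± 2.94, against 69.7 ± 3.57 in WT. Sgms2 was lower in both, at 183 ± 7.69 CPM in WT, 150.01 ± 15.8 in dKO and 149.6 ± 7.12 in tKO, and neither mutant group overlapped WT. Counts over a whole gene do not show whether part of it is deleted, so groups are named by their labels throughout. The extraction note of the liver experiment speaks of white adipose tissue, but summed hepatocyte markers stood at 58719 to 96356 CPM and adipocyte markers at 3.66 to 90.4 in these libraries, with Lep at 0.

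Oxidative phosphorylation moves electrons from NADH and succinate to oxygen through complexes I to IV of the inner mitochondrial membrane and uses the proton gradient so built to make ATP in complex V. Most subunits are encoded in the nucleus and imported, while the mitochondrial genome encodes a small set of core subunits of complexes I, III, IV and V, and none of complex II. In hepatocytes the chain reoxidises the NADH and FADH2 of fatty acid oxidation and supplies the ATP for glucose and urea synthesis. Many of these genes share promoter motifs for the factors NRF1, GABP (an ETS factor), YY1 and the oestrogen-related receptors.

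Promoters are shown for 5 members whose RNA was called in at least 1 comparison below and which differ in these motifs. Each is 150 bases of GRCm38.p6 sequence from RefSeq, written 5′ to 3′ on the gene's own strand from 100 bases before the transcription start, with motif matches in capitals on either strand. Uqcrc1 has 2 matches to the NRF1 motif (GCGC, any base, then TGCGC), Cox8a 2 to the ETS motif CCGGAAG (printed as its reverse complement), Cox6a1 1 to the ETS motif, and Atp5j2 1 to the YY1 motif AAGATGGCG. Cox6a1 also has 2 NRF1 matches before the printed stretch, beginning at −162 and −117 from the start. Ndufb10 has none of the 4 motifs.
Uqcrc1, chr9:108936548-108936697, plus strand: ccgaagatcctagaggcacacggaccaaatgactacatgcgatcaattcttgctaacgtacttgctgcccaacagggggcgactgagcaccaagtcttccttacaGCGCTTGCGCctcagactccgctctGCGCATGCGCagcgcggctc
Cox8a, chr19:7217567-7217716, minus strand: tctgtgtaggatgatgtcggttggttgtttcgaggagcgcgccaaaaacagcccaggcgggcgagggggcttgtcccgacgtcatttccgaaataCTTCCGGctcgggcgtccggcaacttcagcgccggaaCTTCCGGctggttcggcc
Cox6a1, chr5:115348909-115349058, minus strand: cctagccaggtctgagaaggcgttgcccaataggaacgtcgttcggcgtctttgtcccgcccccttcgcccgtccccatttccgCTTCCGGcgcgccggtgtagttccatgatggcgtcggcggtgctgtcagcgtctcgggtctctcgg
Atp5j2, chr5:145191492-145191641, minus strand: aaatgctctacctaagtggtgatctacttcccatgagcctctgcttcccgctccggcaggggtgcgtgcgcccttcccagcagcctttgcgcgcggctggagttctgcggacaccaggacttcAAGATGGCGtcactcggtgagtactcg
Ndufb10, chr17:24724374-24724523, minus strand: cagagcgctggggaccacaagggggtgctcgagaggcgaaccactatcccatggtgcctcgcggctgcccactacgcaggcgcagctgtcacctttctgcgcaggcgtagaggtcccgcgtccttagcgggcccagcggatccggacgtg

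Over the full window of 300 bases, from 250 before to 50 after the start, 71 promoters of 66 members could be compared with all 32851 promoters of the table. The NRF1 motif was in 25.4% of the members' promoters and 4.60% of all promoters. The ETS motif was in 22.5% against 8.86%, the YY1 motif in 9.86% against 1.40%, and the oestrogen-related receptor motif TCAAGGTCA in 2.82% against 0.423%. Both strands were searched and no motif contains another. A match is a run of letters and not a measured binding site.

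Members of 1 complex differed widely in level. In WT liver, levels were read on the TPM scale (counts per listed gene length, scaled to the library). Complex I members ran from 440 ± 55.2 for Ndufb9 to 12.9 ± 1.36 for Ndufb2 (SD, n = 4). This was a 34.2-fold span around a median of 89.6. It depends on the listed lengths, which for Ndufb2 were 5628 bases in liver and 842 in hepatocytes. In CPM Ndufb2 stood at 32.4 ± 3.56 in WT liver, above Ndufb4 at 21.2 ± 0.762. The 4 succinate dehydrogenase genes of complex II lay within 2.66-fold, from Sdha, the flavoprotein that oxidises succinate, at 312 ± 43.0 TPM to the membrane anchor Sdhc at 117 ± 13.4. The highest TPM values of all were those of Cox6a1 in complex IV (744 ± 97.1) and of the alpha subunit of the ATP synthase head, Atp5a1 (701 ± 76.4). This order depends on the listed lengths too, which for Atp5b were 4237 bases in liver and 1879 in hepatocytes. In CPM Cox6a1 stood at 233 ± 28.5 in WT liver, below Atp5a1 at 983 ± 133 and Atp5b at 1090 ± 106. In WT hepatocytes, on the FPKM scale (fragments per gene length and library size), the catalytic beta subunit gene Atp5b led complex V at 426 ± 3.98 and Cox6a1 led complex IV at 398 ± 6.90 (SD, n = 3). Ndufb9 led complex I in this experiment too, at 136 ± 2.57 FPKM, 12.7-fold above Ndufa11, the lowest. TPM and FPKM come from separately made tables and are not compared with each other.

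Isoforms of the chain that are typical of striated muscle, testis or brown fat were near 0, and so were muscle markers. Cox6a2, the heart and skeletal muscle form of subunit VIa, held 0.0780 ± 0.0463% of the summed Cox6a TPM in WT liver. Cox7a1 held 3.58 ± 1.35% of Cox7a in WT liver and 1.41 ± 0.924% in WT hepatocytes. Striated muscle markers together reached 0.840 to 1.74 CPM in liver and 0.430 to 1.32 in hepatocytes. The testis form Cox6b2 had 2 counts in all 9 hepatocyte libraries together and the brown fat form Cox8b had 14 in the 8 liver libraries. These low counts left Cox6a2 and Cox8b untested in liver, and Cox6a2, Cox6b2 and Cox7a1 untested in hepatocytes, so 78 and 76 members were tested. The 3 genes of ATP synthase subunit c, which encode the same mature protein, were split unevenly. In WT liver Atp5g3 gave 67.5 ± 1.69% of their TPM, Atp5g2 20.4 ± 0.890% and Atp5g1 12.1 ± 1.90%. In WT hepatocytes the FPKM shares were 37.7 ± 1.66%, 37.4 ± 1.98% and 25.0 ± 0.618% in the same order. These shares depend on the listed gene lengths, which for Atp5g1 were 4912 bases in liver and 804 in hepatocytes. In CPM Atp5g1 stood above Atp5g2 in WT liver, at 113 ± 25.0 against 64.0 ± 5.54.

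The liver comparison asks what the lesion of Samd8 changes on the diet. None of the 78 tested members was called, against 0.234% of the 15820 tested genes (edgeR quasi-likelihood test, adjusted p below 0.05). At an unadjusted p under 0.05 there were 2 members, Cox7a2l and Ndufs7, or 2.56% against 13.1% of all genes. DESeq2 called 0 members too, against 3.01% of all genes. The members' log2 fold changes lay between −0.11 (Ndufa8) and 0.52 (Cox6b2, at 0.215 to 1.08 CPM) with a median of 0.11, or 7.86% above WT, beside a median of −0.01 for all genes. Of the 78, 72 had a value above 0, against 47.8% of all genes. With library totals in place of TMM 57 of 78 lay above 0 and the members' median was 0.04, beside −0.08 for all genes. The medians were 0.11 for complex I, 0.05 for II, 0.08 for III, 0.12 for IV and 0.10 for V, and with library totals that of complex II turned to −0.01. Summed hepatocyte markers moved with the groups, at 58719 to 75312 CPM in WT and 85319 to 96356 in SMSrKO libraries, and their part in the members' values was not tested. The library WT 1 stood apart from the others on principal component 1, where it lay at −48.7 and the other 3 of its group between −15.3 and −9.10. Without it 0 members were called and their median was 0.09.

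Cox7a2l, which joins complexes III and IV into supercomplexes, stood at 63.4, 69.2, 81.8 and 71.8 CPM in the WT libraries and at 86.4, 83.5, 75.4 and 88.1 in those labelled SMSrKO. The lowest SMSrKO value lay below the highest WT value, so the groups overlapped, and the log2 difference was 0.22 ± 0.0939 (SE, edgeR adjusted p = 0.36). Ndufs7, an iron-sulfur subunit at the quinone site of complex I, stood at 69.7, 66.2, 72.5 and 66.6 CPM in WT and 75.9, 85.5, 72.8 and 79.3 in SMSrKO libraries. Every SMSrKO value was above every WT value by a narrow margin, with a log2 difference of 0.19 ± 0.0764 (edgeR adjusted p = 0.334). Ndufa4l2, at 0.776 to 0.928 CPM in WT and 0.972 to 1.49 in SMSrKO libraries, was the other of 2 members whose groups did not overlap, or 2.56% against 3.79% of all genes (edgeR adjusted p = 0.409).

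Summed by complex, the liver groups overlapped throughout. All members together reached 11606 to 14481 TPM in WT and 12505 to 14325 in SMSrKO libraries, with means of 12951 ± 1216 and 13385 ± 813 (SD, n = 4 each). The library WT 1 was lowest and WT 3 highest among all 8, so the spread within WT was wider than the 103% ratio of the means. The 13 mitochondrially encoded subunits gave 0 calls and a median log2 fold change of 0.18, between 0.01 and 0.32. Of these, mt-Nd4l, mt-Co2, mt-Co3, mt-Atp6 and mt-Atp8 had means of 1.06 to 5.67 CPM and mt-Co1 of 13677 in WT, a gap whose cause was not tested.

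**Figure D1:**
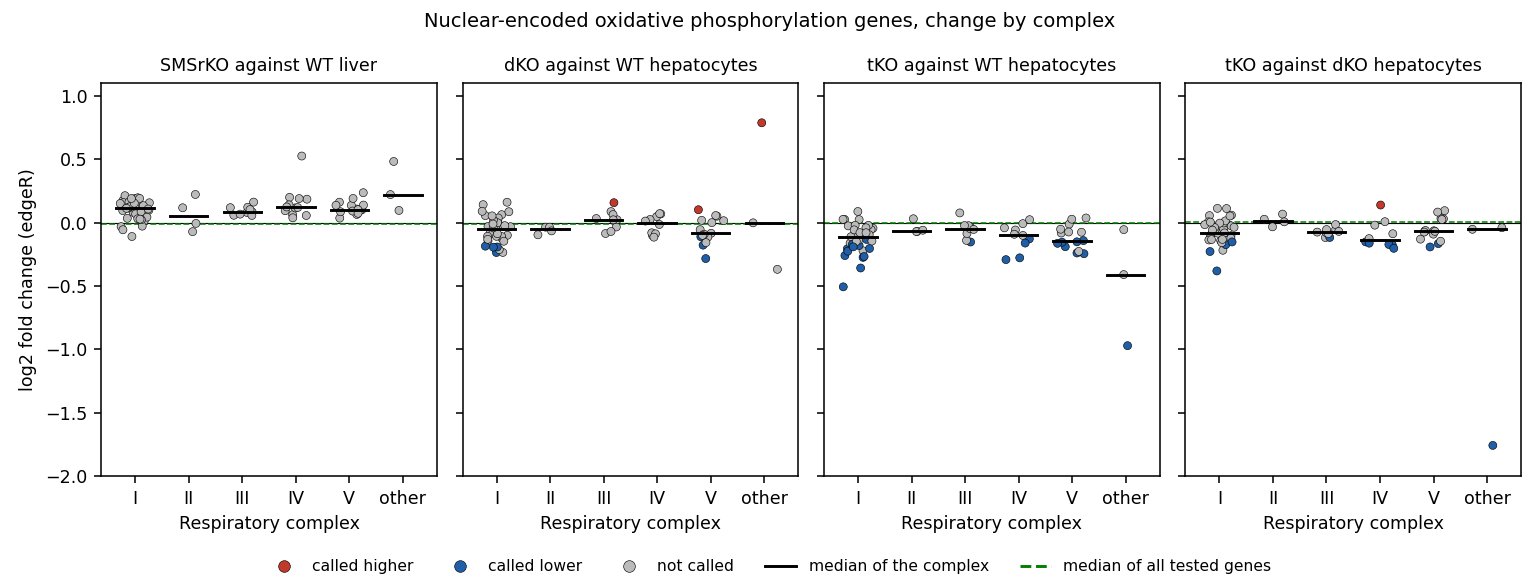
Log2 fold change (edgeR) of each tested member, by respiratory complex, in the 4 comparisons. Points are genes, red called higher, blue called lower and grey not called, black bars are the medians of a complex and the green dashed line is the median of all tested genes. In liver the points sit mostly above 0 with 0 called, in tKO against WT mostly below 0 with 25 called lower, and Ndufa4l2 is the point farthest from 0 in each hepatocyte comparison.

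In hepatocytes, with a biological coefficient of variation of 3.52% against 20.3% in liver, small differences were called. The labels state 3 per group for the hepatocyte mice but do not say which libraries come from separate animals, and for liver they say nothing, so the p-values measure the spread between these libraries, which may be technical. The dKO and tKO comparisons share the 3 WT libraries, so they are not independent. In bulk RNA, fewer cells of a type and less RNA per cell cannot be told apart. Hepatocyte markers together (9 of 10 found) reached 60800 to 62926 CPM in WT, 52705 to 54022 in libraries labelled dKO and 46074 to 48544 in those labelled tKO. Endothelial markers (8 of 8 found) reached 22.8 to 24.1, 145 to 162 and 84.0 to 86.6 CPM, and macrophage markers (8 of 8) 122 to 137, 321 to 338 and 362 to 380. Cholangiocyte markers (6 of 6) reached 249 to 263 CPM in WT, 376 to 395 in dKO and 246 to 261 in tKO. The part of these shifts in the members' values was not tested.

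In libraries labelled dKO, 10 of 76 members were called against WT, 3 higher and 7 lower, or 13.2% against 44.0% of the 11471 tested genes (edgeR). By direction these were 3.95% against 24.0% for higher and 9.21% against 20.0% for lower. The median log2 fold change of the members was −0.04, beside −0.01 for all genes. Complexes II and IV had 0 calls. With DESeq2 3 were higher and 3 lower, beside 2371 and 1707 of all 11471 genes. Of the 10, Atp5g1, Uqcrc1 and Ndufa4l2 were still called whichever of the 9 hepatocyte libraries was left out, and without dKO 6 only 2 of the 7 lower calls were kept, Atp5g1 and Ndufa13.

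The members called lower in dKO belonged to complexes I and V. Atp5g1, the least expressed of the subunit c genes in hepatocytes, stood at 80.4, 76.6 and 81.2 CPM in WT, 61.1, 69.8 and 64.7 in dKO and 69.7, 70.1 and 68.8 in tKO libraries. All 6 mutant values were below all 3 WT values, with log2 fold changes of −0.28 ± 0.0594 in dKO (edgeR adjusted p = 4.17e-05) and −0.19 ± 0.0585 in tKO (edgeR adjusted p = 0.00477). Its share of subunit c FPKM was 21.3 ± 0.835% in dKO and 24.0 ± 0.445% in tKO, while Atp5g2 and Atp5g3 were not called in dKO. The complex I accessory gene Ndufa13 (50.1, 55.1 and 45.8 CPM in WT, 39.9, 44.6 and 43.7 in dKO) was lower by a log2 value of −0.24 ± 0.0718 (edgeR adjusted p = 0.00480). Its groups did not overlap, the nearest values being 44.6 and 45.8. Other lower calls were Ndufv2, an iron-sulfur subunit of the NADH-oxidising tip (−0.19), and the accessory genes Ndufb5 and Ndufb9 (−0.19 each). Also lower were the peripheral stalk gene Atp5h (−0.18) and the gamma subunit of the rotor, Atp5c1 (−0.11).

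Higher in dKO were Uqcrc1, core protein 1 of complex III, the beta subunit gene Atp5b and Ndufa4l2. Uqcrc1 stood at 146, 157 and 146 CPM in WT and 161, 170.2 and 168 in dKO, 0.16 ± 0.0476 higher on the log2 scale without overlap (edgeR adjusted p = 0.00498). In tKO libraries it stood at 149, 157 and 166 CPM and was not called. Atp5b stood at 777, 774 and 785 CPM in WT and 807, 852 and 846 in dKO, without overlap and with a log2 value of 0.10 ± 0.0357 (edgeR adjusted p = 0.0166). This call ended when WT 1, WT 2, dKO 5 or dKO 6 was left out.

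In libraries labelled tKO, 25 of 76 members were called against WT, all 25 lower, or 32.9% against 47.4% of all genes in either direction. For lower calls alone the shares were 32.9% of members and 21.8% of all genes, and for higher calls 0% and 25.6%. The members' median was −0.09, or −6.05%, beside an all-gene median of −0.0035. Of the 76 members 67 lay below 0 and 9 above it, where 49.6% of all genes lay above 0. By complex, 12 of 35 members of complex I were lower, 0 of 4 of II, 1 of 9 of III, 4 of 10 of IV and 7 of 15 of V, and the remaining call was Ndufa4l2. The medians were −0.11, −0.07, −0.05, −0.10 and −0.14 for complexes I to V. Each of these medians stayed below 0 with library totals, with a length offset and in DESeq2. DESeq2 called 17 of 76 members lower, beside 2006 of all 11471 genes. Of the 25 lower calls 14 held whichever library was left out.

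Among complex I genes, Ndufb10, an accessory subunit of the membrane arm (chr17, 24722060 to 24724478, GRCm38), had the largest change. It stood at 22.3, 20.97 and 21.8 CPM in WT, 20.8, 17.6 and 21.1 in dKO and 16.6, 13.5 and 15.6 in tKO. The tKO values lay below all 6 others, by a log2 value of −0.51 ± 0.103 from WT (edgeR adjusted p = 2.25e-05) and −0.38 ± 0.104 from dKO (edgeR adjusted p = 0.00275). Next were the accessory genes Ndufa5 (−0.36, with overlapping groups at 12.5 to 17.98 and 9.80 to 13.1 CPM), Ndufb5 (−0.28) and Ndufb8 (−0.27). Of the 7 core genes, those with the flavin, iron-sulfur clusters or quinone site, Ndufv2 was among those called lower, at −0.19. The core and accessory medians were −0.13 and −0.11.

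Complex IV gave the lower calls Cox8a, Cox5b, Cox7c and Cox6a1, all small accessory subunits around the catalytic core. Cox8a (chr19, 7215153 to 7217616) stood at 114, 115 and 108 CPM in WT, 104, 109 and 105 in dKO and 92.6, 95.5 and 87.6 in tKO. The tKO values were the lowest 3 of the 9, with log2 values of −0.29 ± 0.0524 from WT (edgeR adjusted p = 1.95e-06) and −0.20 ± 0.0527 from dKO (edgeR adjusted p = 0.00154). Cox5b, the zinc-binding subunit Vb, stood at 94.2, 89.4 and 91.3 CPM in WT, 81.9, 87.0 and 87.2 in dKO and 75.3, 82.7 and 68.6 in tKO. It was lower than WT by −0.28 ± 0.0579 without overlap (edgeR adjusted p = 3.42e-05), while the highest tKO value passed the lowest dKO value.

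In tKO against WT, complexes II and III had the fewest calls. The 4 succinate dehydrogenase genes had log2 values from −0.10 (Sdhc) to −0.04 in dKO and from −0.07 to 0.03 (Sdhb) in tKO, with SE of 0.04 to 0.06, and all their groups overlapped. Sdha, for example, stood at 234, 237 and 237 CPM in WT, 226, 228 and 237 in dKO and 228, 213 and 234 in tKO. In complex III, cytochrome c1 (Cyc1) was lower in tKO, at 102, 106 and 101 CPM against 113, 116 and 114 in WT, by −0.15 ± 0.0504 without overlap (edgeR adjusted p = 0.00854). The Rieske protein gene Uqcrfs1 was not called in any comparison.

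The 7 complex V genes lower in tKO came from its head, rotor stalk, c ring, peripheral stalk and membrane sector. Atp5a1 stood at 482, 478 and 507 CPM in WT, 500.1, 520.1 and 499 in dKO and 461, 438 and 430 in tKO. The tKO values were the lowest 3 of the 9, by −0.14 ± 0.0385 from WT (edgeR adjusted p = 0.00133) and −0.19 ± 0.0384 from dKO (edgeR adjusted p = 3.62e-05). Atp5b, its partner in the head, stood at 808, 789 and 797 CPM in tKO and was not called against WT. The others were the epsilon subunit Atp5e (−0.25), subunit f, Atp5j2 (−0.24), Atp5g1, subunit g, Atp5l (−0.16), Atp5h (−0.16) and Atp5g3 (−0.15).

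**Figure D2:**
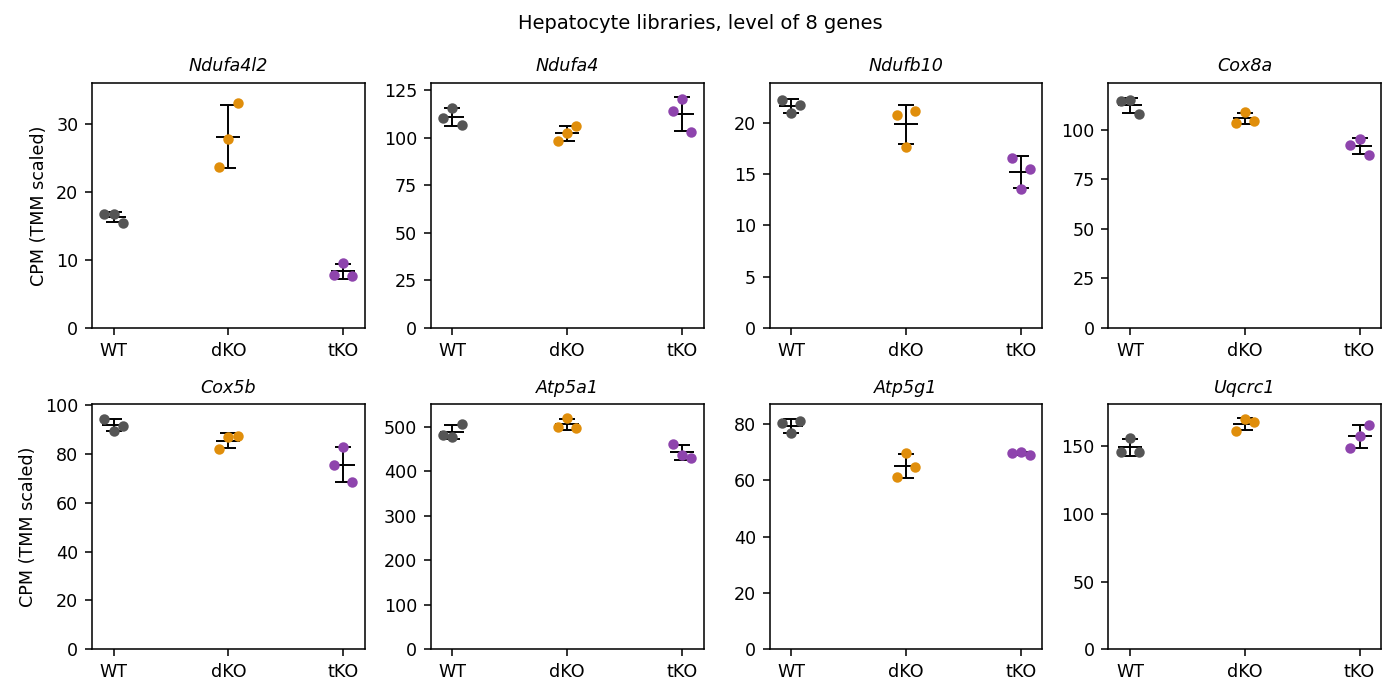
CPM (TMM scaled, axes from 0) of 8 members in the 9 hepatocyte libraries. Points are libraries and bars the mean with SD, n = 3 per group. Ndufa4l2 is highest in dKO and lowest in tKO libraries, Ndufb10, Cox8a and Atp5a1 have their lowest 3 values in tKO, Atp5g1 is lower in both mutant groups, and Uqcrc1 is higher in dKO than in WT.

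Between the mutant groups, which differ by label in Samd8, 14 of 76 members were called, or 18.4% against 29.5% of all genes. In tKO 13 were lower, or 17.1% against 15.2% of all genes, and 1 was higher, or 1.32% against 14.3%. The 1 higher gene was Ndufa4, a subunit of complex IV named for complex I, at 98.0, 103 and 106 CPM in dKO and 114, 120.5 and 103 in tKO. Its groups overlapped, at a log2 value of 0.14 ± 0.0535 (edgeR adjusted p = 0.0418), and the call ended when dKO 4, dKO 5, tKO 7 or tKO 8 was left out. Lower calls beyond those above included Ndufs3, a scaffold subunit of the matrix arm (−0.23), Ndufb11 (−0.17), Cox7c (−0.17), Atp5g3 (−0.17), Cox7b (−0.16), Cox6a1 (−0.15) and Uqcrc2 (−0.12). Of the 13 lower calls 5 held whichever library was left out (Atp5a1, Cox8a, Ndufa4l2, Ndufb10 and Ndufs3). Cox7b, with overlapping groups, and Uqcrc2 and Ndufb11 were not called with DESeq2, with the 2 groups alone, with library totals or with no filter.

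Taking the 3 hepatocyte comparisons side by side, 44 of 76 members were called in none. Another 9 were lower in tKO than in both other groups (among them Atp5a1, Atp5g3, Cox5b, Cox6a1, Cox7c, Cox8a, Ndufb10 and Ndufb11), 9 were called lower in tKO against WT and in no other comparison, and 6 were lower in dKO and in tKO than in WT (Atp5g1, Atp5h, Ndufa13, Ndufb5, Ndufb9 and Ndufv2). Of all tested genes 44.0% were called in dKO against WT, 47.4% in tKO against WT and 29.5% in tKO against dKO. Shares of all genes by pattern are not given here, so these counts are not read as particular to the members. A call in one comparison and not in another does not show a difference between them. Of the 20 members called lower in tKO with a promoter in the table, 4 held the NRF1 motif and 5 the ETS motif, and of the 44 not called, 13 and 11 did.

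Ndufa4l2, a paralogue of Ndufa4 known as a target of hypoxia-inducible factor that lowers complex I activity, stood apart from every other member. It lies at chr10, 127514967 to 127517154 (GRCm38), and no subunit function is assigned to it here. Its level was 16.8, 16.8 and 15.4 CPM in WT, 23.7, 27.7 and 33.0 in dKO and 7.74, 9.57 and 7.63 in tKO. The 3 groups did not overlap. Against WT the log2 difference was 0.79 ± 0.104 for dKO (edgeR adjusted p = 6.96e-10) and −0.97 ± 0.128 for tKO (edgeR adjusted p = 6.79e-10). Between tKO and dKO it was −1.76 ± 0.116 (edgeR adjusted p = 1.36e-22). It was the 1 member at least 1.5-fold changed and called in each comparison, shares of 1.32% against 13.6%, 15.2% and 7.26% of all genes. It made up 6.34 ± 0.181% of the summed FPKM of Ndufa4 and Ndufa4l2 in WT, 11.2 ± 1.23% in dKO and 3.28 ± 0.258% in tKO. Stellate cell and fibroblast markers (8 of 8 found, Lrat and Acta2 at 0 in WT) reached 15.9 to 19.9 CPM in WT. They reached 50.2 to 56.0 CPM in dKO and 31.3 to 35.3 in tKO, and endothelial markers had the same order of groups as these. Both marker sets were lowest in WT, whereas Ndufa4l2 was lowest in tKO libraries. The part of these cell types, and of the cholangiocyte markers given above, in the level of Ndufa4l2 was not tested.

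Summed by complex, the changes were small. Complex I members reached 1850 to 1887 FPKM in WT, 1762 to 1851 in dKO and 1731 to 1791 in tKO. Complex IV reached 1951 to 1996, 1923 to 1964 and 1801 to 1937 FPKM, and complex V 2261 to 2309, 2193 to 2317 and 2165 to 2214. Each tKO range lay below the WT range for these complexes. The complex II sum was below WT in dKO, at 305 to 315 against 318 to 325 FPKM, and in tKO it overlapped WT at 317 to 321 FPKM but lay below it in CPM, at 476 to 489 against 496 to 506. As a share of the WT mean, tKO sums of FPKM were 93.7%, 99.4%, 98.0%, 94.1% and 95.8% for complexes I to V. The dKO sums of FPKM were 96.3%, 96.4%, 101%, 98.5% and 98.4% in the same order. In CPM the dKO sum of complex V was 101% of the WT mean, and that of all members together 99.8%. All members together gave 7638 ± 67.0 FPKM in WT, 7516 ± 138 in dKO and 7274 ± 113 in tKO (SD, n = 3).

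**Figure D3:**
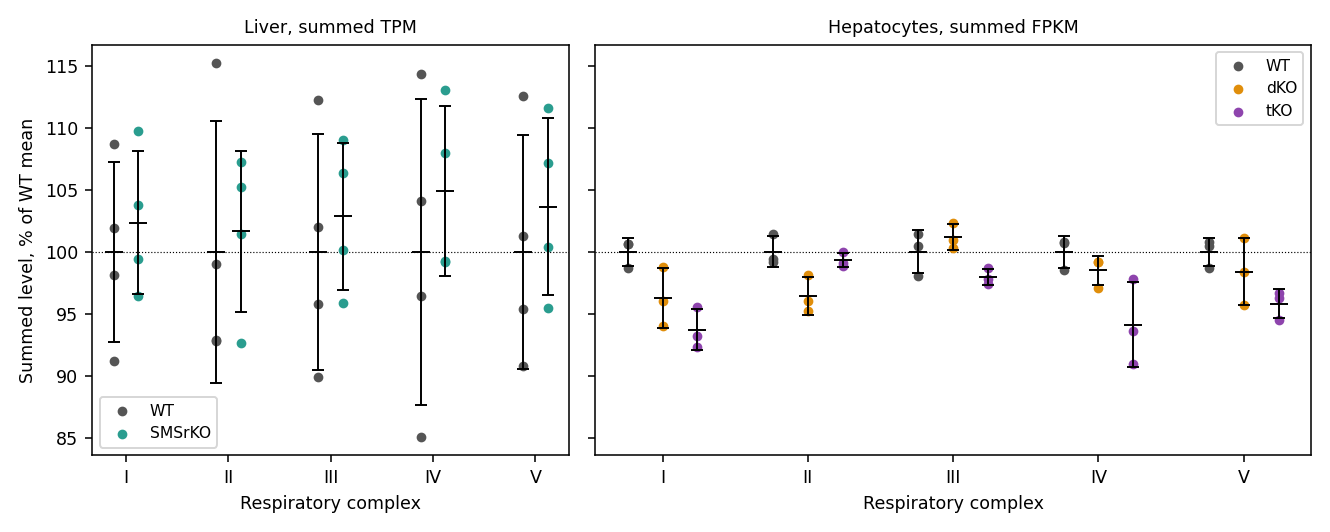
Summed level of each complex per library as a percentage of the WT mean, in liver (TPM) and hepatocytes (FPKM), on an axis that does not start at 0. Points are libraries and bars the mean with SD, n = 4 per liver group and 3 per hepatocyte group. The liver groups overlap in every complex, and in hepatocytes the tKO points lie below the WT points in complexes I, IV and V.

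Subunit transcripts are short, with a median length of 732 bases against 2865 for all tested hepatocyte genes and 1475 against 3687 in liver. Of the 76 hepatocyte members, 69 fell in the shortest of 5 equal bins (324 to 1651 bases). All genes of that bin had medians of −0.04 in dKO, −0.03 in tKO against WT and 0.01 in tKO against dKO, beside −0.06, −0.10 and −0.07 for the members in it. The bin's share of called genes was 36.2%, 40.5% and 25.5%. In liver the shortest bin had a median of 0.06 and the longest −0.04, and with an offset that removes the length trend the members' median was 0.06, with 59 of 78 above 0 in place of 72. With that offset 16 of 76 members were lower in tKO than in WT, near the share of all genes (2394 of 11471). The members' median there was −0.06, beside 0.01 for all genes, with 60 members below 0. In dKO 5 members were higher and 5 lower, beside 2834 and 2210 of all genes.

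**Figure D4:**
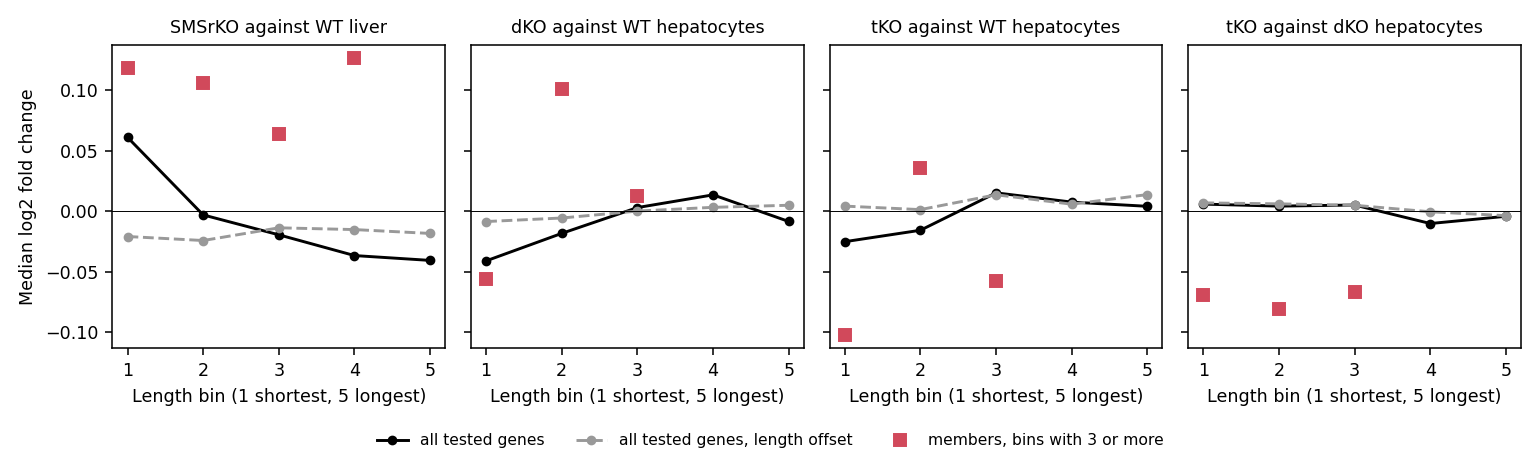
Median log2 fold change in 5 bins of gene length (1 shortest, 5 longest) in the 4 comparisons. Black lines show all tested genes, grey dashed lines the same with the length offset, and red squares the members in bins with at least 3 of them. In tKO against WT and tKO against dKO the members of the shortest bin lie at −0.10 and −0.07, below all genes of that bin.

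When the hepatocyte fits were given the larger dispersion of the liver libraries, Ndufa4l2 was the 1 member still called in each of the 3 comparisons, while 1055, 1221 and 326 of all genes were called. Every other call of a member ended under that dispersion. Several members have processed pseudogenes or near-identical relatives, Atp5g1, Atp5g2 and Atp5g3 among them, and their levels are uncertain, since the handling of reads shared with such copies is not given in the sources used here.

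Other genes of the pathway were called in both directions in hepatocytes, at shares near or below those of all genes. Of 45 tested assembly factors, 1 was higher and 8 lower in dKO, 3 and 9 in tKO against WT, and 4 and 3 in tKO against dKO. The called shares were 20.0%, 26.7% and 15.6%, against 44.0%, 47.4% and 29.5% of all genes. Timmdc1, which builds the membrane arm of complex I, went from 16.2 CPM in WT to 9.84 in dKO (log2 −0.72 ± 0.126, edgeR adjusted p = 1.51e-06) and 12.7 in tKO. Cox19, a copper-handling factor of complex IV assembly, went from 11.5 CPM in WT to 17.6 in tKO (0.62 ± 0.116, edgeR adjusted p = 5.76e-06). Of 13 coenzyme Q genes, 2 were higher and 1 lower in dKO and 4 higher and 0 lower in tKO, called shares of 23.1% and 30.8% against 44.0% and 47.4% of all genes. The largest change of these in tKO was that of Coq7, the hydroxylase of the quinone ring, at 0.40 ± 0.0798 in tKO (edgeR adjusted p = 1.97e-05).

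Of 23 regulators of mitochondrial biogenesis, 4 were higher and 6 lower in dKO, and 6 higher and 4 lower in tKO, a called share of 43.5% in each that is near the 44.0% and 47.4% of all genes. Ppargc1a, the coactivator PGC-1alpha, was at 3.44 CPM in WT, 9.95 in dKO (log2 1.53 ± 0.176, edgeR adjusted p = 6.93e-12) and 7.55 in tKO (1.13 ± 0.184, edgeR adjusted p = 2.15e-07). The mitochondrial transcription factor genes Tfam and Tfb2m were lower in both, Tfb2m by −0.51 ± 0.0693 in dKO (edgeR adjusted p = 2.31e-09) and −0.50 ± 0.0688 in tKO (edgeR adjusted p = 2.34e-09). Of 10 tested genes outside the symbol pattern, 3 were lower in tKO, or 30.0% against 21.8% of all genes, including Cox4i1, subunit IV of complex IV, at −0.17 ± 0.0456 (edgeR adjusted p = 0.00150), and Higd1a, a hypoxia-induced protein of complexes III and IV, from 112 CPM in WT to 69.2 in tKO (−0.69 ± 0.0571, edgeR adjusted p = 3.68e-18). In liver 0 genes of any of these lists were called.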

How the data were processed

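Whole-number counts per Ensembl gene and a TPM table were deposited by the authors for the 8 liver libraries. For the 9 hepatocyte libraries the deposited files hold expected counts per Entrez gene and FPKM, per the file headers, and list only genes above 0. The submitters' processing notes name Trimmomatic 0.36, STAR 2.5.2b, Bowtie2 2.2.5, DESeq2 1.30.1, GRCm38 and mm10. Overlapping and antisense genes are uncertain, with counting tool, annotation and strand setting not given in the sources used here. Mitochondrially encoded genes were not analysed in hepatocytes.

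Liver libraries held 24391627 to 47351126 counts. Hepatocyte libraries held 9221488 to 9665309 expected counts, 6.25% of them not whole, and all were rounded. Counts were fitted per experiment with edgeR 4.0.16 (limma 3.58.1, R 4.3.3): filterByExpr at a minimum count of 10, TMM, the robust quasi-likelihood test and Benjamini-Hochberg adjustment across the tested genes of the experiment (calls at 0.05). CPM is TMM scaled. SE is that of the log2 fold change. Alternatives were DESeq2 1.42.0, no filter, library totals, a length trend offset, fits of 2 groups, the liver dispersion, and leaving out each library. Figures used Python 3.11.15 with pandas 2.3.3, numpy 2.4.6 and matplotlib 3.10.9.

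On simulated liver data of 15563 genes the test recovered 23.4%, 63.6% and 92.1% of genes changed 1.5-fold, 2-fold and 4-fold, with 6 of 121 calls false. On simulated dKO against WT data of 11209 genes it recovered 83.1%, 91.0% and 100% at the same sizes, with 11 of 191 calls false. There 65, 67 and 65 genes were changed, while 44.0% of all genes were called in the measured comparison. The simulated rates may therefore not hold for it. Recovery of changes smaller than 1.5-fold, such as those of most members here, was not measured.

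Members, pathway lists and marker lists were chosen with earlier results of these data known, and the list of hypoxia-induced genes was added after the members' values were seen. Named members were, per comparison and complex, up to 3 called in each direction with the largest change and a mean of at least 5 CPM, the smallest p where none was called, all isoforms and paralogues, and the highest and lowest levels. Other members named were chosen after their values were seen. Gene positions are those of GENCODE release M21 (GRCm38). Promoters were matched by Entrez identifier, for 66 of 80 members. The values of 1 member are not reported here.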

Additional observations from a re-analysis of the deposited data

Results flagged for a closer look

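A value was singled out where 1 of 4 liver libraries lay so far from the other 3 that the gap, divided by the range of the group, passed Dixon's 95% critical value for 4 samples. This was so in 7 of 66 groups of members tested, while chance gives about 1 in 20 where groups are independent. Members measured in the same libraries are not independent, and all 7 values fell in libraries SMSrKO 6, SMSrKO 7 and WT 3. In library SMSrKO 6 the highest values were Atp5g1 at 136.1 CPM (114 to 116 in the others), Atp5g3 at 365.3 CPM (309.7 to 315) and Ndufb9 at 156.8 CPM (136 to 138). In library SMSrKO 7 the lowest values were Atp5g2 at 63.61 CPM (73.3 to 74.7) and Sdhd at 171.3 CPM (194 to 196). In library WT 3 the highest values were the muscle form Cox6a2 at 0.3763 CPM and the brown fat form Cox8b at 0.1129 CPM, both at only a few counts. Without SMSrKO 6 or SMSrKO 7 the median log2 fold change of the members in liver was 0.07 or 0.14, with 0 called.

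Ndufa4l2 differed between the 2 mutant groups of hepatocytes in the test of tKO against dKO, by −1.758 on the log2 scale (edgeR adjusted p = 1.36e-22), with all 3 tKO libraries below and all 3 dKO libraries above the 3 WT libraries.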

How the results depend on the processing

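Of named members in the 4 comparisons, none changed direction with a call on either side under any alternative. The counts of members depended on the spread and the scaling, and where a value moved the cause was not tested unless stated. In liver 0 members were called under every alternative, while all genes called went from 37 to 476 with DESeq2 and 136 with no filter, and from 11 to 109 when 1 library was left out. In dKO against WT the 3 higher and 7 lower members became 3 and 3 with DESeq2 (4078 genes in place of 5045). They became 5 and 5 with the length offset (5044 genes), and 1 and 0 with the liver dispersion (1055 genes). Leaving out 1 library gave 2 to 3 higher and 3 to 9 lower, the fewest lower without dKO 4 (3) and WT 2 (4), and without dKO 6 there were 5 lower of which 2 were among the 7. In tKO against WT the 25 lower members became 16 with the length offset (2394 lower genes in place of 2500). With the liver dispersion 1 remained (1221 genes in place of 5435), and without 1 library there were 19 to 25. In tKO against dKO the 1 higher and 13 lower members became 0 and 10 with DESeq2 (2466 genes in place of 3382). They were also 0 and 10 with the 2 groups alone (3224 genes), and 0 and 1 with the liver dispersion (326 genes). Without 1 library they were 0 to 1 and 7 to 13, the fewest lower without dKO 5 (7) and tKO 9 (8). With library totals the share of calls that were higher in tKO against dKO was 56.4%. In all 4 comparisons the members' median kept its sign, at 0.06 to 0.18, −0.05 to −0.03, −0.13 to −0.09 and −0.10 to −0.05 without 1 library. No paired analysis was possible because the groups compared share no replicate numbers. In liver, precision was limited by the spread between libraries: the median SE of the members' log2 fold changes was 0.10 in liver and 0.07 in each hepatocyte comparison.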

Other observations

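Genes known to be induced by hypoxia, a list added after Ndufa4l2 had been seen, were mostly higher in dKO than in WT and tKO hepatocytes. Of 16 tested, 13 were higher and 1 lower in libraries labelled dKO than in WT, against 24.0% higher and 20.0% lower of all genes. In tKO against WT 4 were higher and 8 lower, against 25.6% higher and 21.8% lower of all genes. In tKO against dKO 0 were higher and all 16 lower, against 14.3% higher and 15.2% lower of all genes. The angiogenic factor Vegfa stood at 270 CPM in WT, 432 in dKO and 287 in tKO, with log2 values of 0.68 ± 0.0430 in dKO (edgeR adjusted p = 6.74e-23) and −0.59 ± 0.0426 in tKO against dKO (edgeR adjusted p = 1.32e-19). Ldha, which makes lactate from pyruvate, stood at 1840 CPM in WT, 1952 in dKO and 1374 in tKO, −0.42 ± 0.0345 in tKO against WT (edgeR adjusted p = 2.21e-18). Pdk1, the kinase that inactivates pyruvate dehydrogenase, was lower in both, at 137, 105 and 68.7 CPM. In liver 0 of 17 tested genes of the list were called.

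Genes that feed the chain were called no more often than others. Of 17 genes of pyruvate dehydrogenase and the tricarboxylic acid cycle, 3 were higher and 1 lower in dKO and 4 higher and 1 lower in tKO than in WT, called shares of 23.5% and 29.4% against 44.0% and 47.4% of all genes. Pdhb, the beta subunit of pyruvate dehydrogenase, stood at 117 CPM in WT, 94.6 in dKO and 164 in tKO, and the tKO to dKO difference was 0.79 ± 0.0505 (edgeR adjusted p = 1.21e-23). Idh2, the mitochondrial NADP-linked isocitrate dehydrogenase, was higher in both, by 0.41 ± 0.0776 in dKO (edgeR adjusted p = 7.14e-06) and 0.55 ± 0.0759 in tKO (edgeR adjusted p = 2.28e-09). Of 30 import and carrier genes, 3 were higher and 6 lower in dKO and 7 higher and 7 lower in tKO, or 30.0% and 46.7% against the same shares of all genes. Slc25a4, the muscle form of the ADP/ATP carrier, stood at 3.04 CPM in WT, 6.37 in dKO and 2.99 in tKO, with a tKO to dKO difference of −1.09 ± 0.206 (edgeR adjusted p = 1.36e-05).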
